A study of Mus musculus with 6 samples.

Results

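The clock output and PAR bZIP genes Dbp, Tef, Hlf, Nfil3, Bhlhe40, Bhlhe41, Usp2 and Wee1 were taken as every probe that carries a member's gene name on the array, control spots apart. This gave 10 probes of 8 genes among 55681 probes, with 2 probes each for Dbp and Bhlhe41 and a single probe for each other gene. The tissue was whole liver, taken 2 h after an oral dose from mice of the inbred strain C57BL6/J. The first group of 3 mice received 250 mg/kg of a compound that the labels call only CBZ, and the other 3 mice received dimethyl sulfoxide (DMSO), a solvent. Each liver was measured on its own 1-colour Agilent array, in which a probe's brightness stands for the amount of its transcript. Age, sex and the time of day of dosing are not given in the sources used here.

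The liver clock is a feedback loop in which the proteins Clock and Arntl switch on genes through E-box elements, among them the Per, Cry and Nr1d genes that in turn hold the loop back. Dbp, Tef and Hlf, the PAR bZIP factors (basic leucine zipper proteins with a domain rich in proline and acidic amino acids), lie downstream of it and carry its rhythm to genes with a D-box element. Nfil3, a bZIP repressor, binds the same element. Bhlhe40 and Bhlhe41 are repressors that bind E-boxes. Usp2, a protease that removes ubiquitin, and Wee1, a kinase that delays entry into mitosis, are rhythmic outputs of the clock in liver. Among the liver genes known to depend on PAR bZIP factors are those for heme synthesis and for the detoxification of foreign compounds.

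The promoter windows of the 3 PAR bZIP genes are shown because the E-box is the element through which the clock is known to act on such genes, and because Dbp and Tef are compared mouse by mouse below. The RefSeq table, on the build GRCm38.p6, holds 7 windows of 6 members, each from 250 bases before to 50 bases after a gene start, and Bhlhe40 and Wee1 are only named here. Capitals mark the E-box CACGTG in Tef and the cAMP response element TGACGTCA in Hlf, and lower case is the rest of the window.
Dbp, chr7:45704997-45705296, plus strand: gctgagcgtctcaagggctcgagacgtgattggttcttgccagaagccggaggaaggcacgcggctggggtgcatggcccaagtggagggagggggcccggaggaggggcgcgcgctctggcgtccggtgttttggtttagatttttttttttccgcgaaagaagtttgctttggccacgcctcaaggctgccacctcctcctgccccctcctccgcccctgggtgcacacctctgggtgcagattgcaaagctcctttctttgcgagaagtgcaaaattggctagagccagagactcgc
Tef, upstream start, chr15:81802423-81802722, plus strand: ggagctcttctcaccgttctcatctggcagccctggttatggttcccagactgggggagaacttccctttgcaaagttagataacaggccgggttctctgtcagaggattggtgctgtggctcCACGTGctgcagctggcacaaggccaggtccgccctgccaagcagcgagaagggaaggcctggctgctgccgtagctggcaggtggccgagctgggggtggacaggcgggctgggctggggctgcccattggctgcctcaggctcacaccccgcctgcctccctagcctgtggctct
Tef, downstream start, chr15:81811164-81811463, plus strand: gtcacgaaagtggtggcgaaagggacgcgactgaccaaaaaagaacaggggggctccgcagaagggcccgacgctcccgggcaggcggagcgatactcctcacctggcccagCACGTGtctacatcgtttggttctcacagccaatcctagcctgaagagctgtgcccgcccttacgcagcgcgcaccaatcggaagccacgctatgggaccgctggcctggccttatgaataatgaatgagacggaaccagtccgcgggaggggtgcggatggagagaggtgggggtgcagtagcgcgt
Hlf, chr11:90390868-90391167, minus strand: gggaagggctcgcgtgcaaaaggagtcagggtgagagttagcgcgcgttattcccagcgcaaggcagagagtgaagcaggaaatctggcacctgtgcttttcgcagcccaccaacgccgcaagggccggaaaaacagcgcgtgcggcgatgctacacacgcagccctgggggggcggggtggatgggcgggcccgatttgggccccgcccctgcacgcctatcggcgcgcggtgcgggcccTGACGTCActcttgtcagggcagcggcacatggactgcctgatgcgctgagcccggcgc
Both Tef windows held an E-box, at 127 and 138 bases before the start, as did the window of Bhlhe41 at 153 bases before it. Of all 32851 windows of this length, 7.15% held that motif on either strand. The cAMP response element lay in the Hlf window 9 bases before the start, against 1.79% of all windows. The window of Nfil3 held TAGGTCA, the core of the element bound by ROR and REV-ERB receptors, which 2.61% of all windows hold. The windows of Dbp and Usp2 held none of the motifs searched. The related E-box form CACGTT (4.68% of all windows) and the D-box forms TTATGTAA (0.938%) and TTACGTAA (0.119%) were in none of the 7 member windows. The search covered both strands, and no match overlapped another.

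Between 42.6% and 45.8% of an array's spots were well above background, no spot was saturated, and Pearson's r between arrays, across probes, was 0.988 to 0.993 on the log2 scale. After probes dim in both groups were left out, 22352 probes of 17047 genes were tested. All 6 markers of hepatocytes were well above background, with a summed level of 4850 to 5679 times the array's 75th percentile in CBZ livers and 4858 to 5144 times in DMSO livers. Of the members, 7 genes passed this filter, each on all 6 arrays. Bhlhe41 did not pass. Its brighter probe read 24.6, 7.83 and 11.3 intensity units in CBZ livers and 19.7, 22.6 and 30.0 in DMSO livers, its dimmer probe read 11.2, 7.02 and 9.54 in CBZ livers and 7.84, 8.29 and 10.1 in DMSO livers, and neither was well above background on any array. No fold is given for it.

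None of the 7 measured members passed the test between the groups. The test was limma's moderated test on log2 signals scaled to each array's 75th percentile, with a Benjamini-Hochberg adjusted p under 0.05 over all probes tested as the threshold. It called 0.0528% of all genes, 8 higher and 1 lower in CBZ. Under array median scaling the split of called genes was 44 higher and 45 lower, and no member was among them. At an unadjusted p under 0.05, which 8.96% of all genes met, 2 members were left, Bhlhe40 at a higher value in CBZ livers and Usp2 at a lower one. By size of the unadjusted p, Bhlhe40 stood at place 1084 and Usp2 at place 1205 of 17047 genes. Of the 7 members 2 had a higher mean in CBZ livers and 5 a lower one, and their median log2 fold change (CBZ minus DMSO) was -0.22, against -0.0043 over all genes. Without DMSO replicate 2 this median was 0.031, without DMSO replicate 1 it was -0.032, and within slide row 1, which held CBZ replicate 1 and the 3 DMSO arrays, it was -0.099. Each value within row 1 rests on that single CBZ mouse and is given without a test. With 3 mice per group the precision is limited by the number of arrays, and the p-values measure the spread between these mice. In whole liver, fewer cells of a type and less RNA per cell cannot be told apart.

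**Figure D1:**
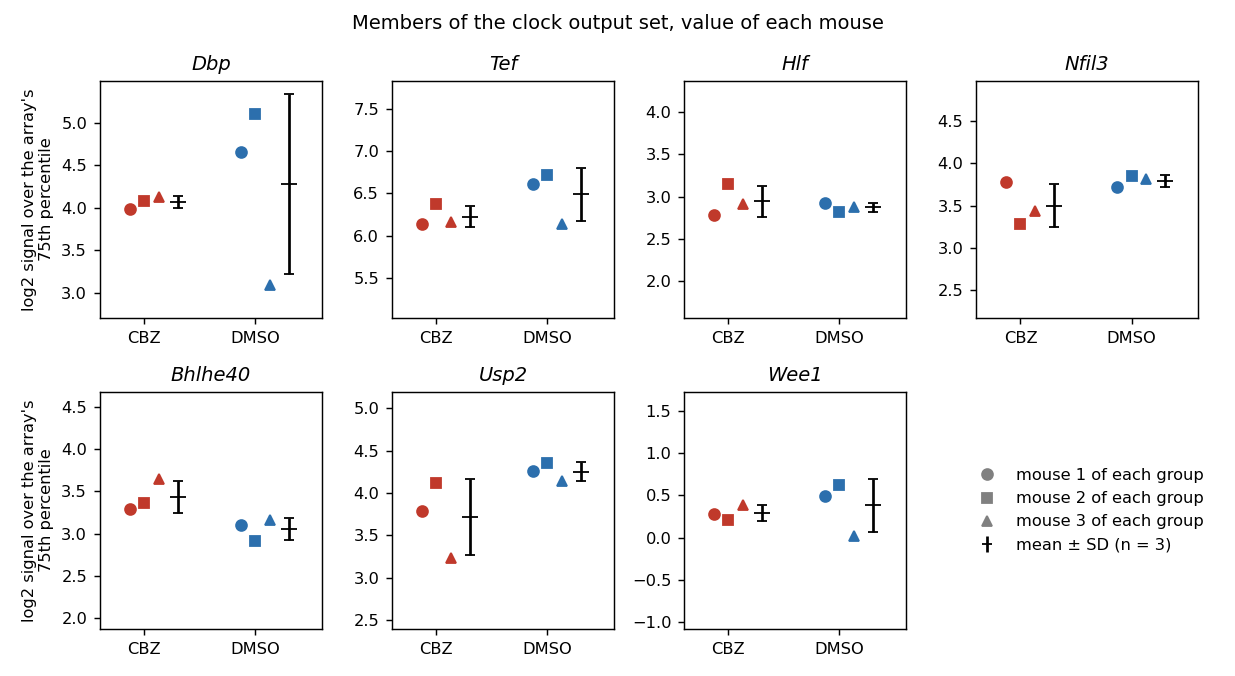
Level of each measured member in each mouse, as log2 of the signal over the array's 75th percentile (vertical axis, same span in every panel), with CBZ mice in red left of DMSO mice in blue and the mean ± SD of 3 mice beside them. Dbp in DMSO mice is the widest group, with mouse 3 below every CBZ mouse, and the groups lie apart for Bhlhe40 and Usp2. Bhlhe41 was dim on every array and is not plotted.

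Dbp, the PAR bZIP gene best known for the size of its daily rhythm in liver, varied less among the CBZ mice than among the DMSO mice by both of its probes. Its brighter probe (chr7:52965461-52965520 on mm9, plus strand, as the array design gives it) read 2913, 2678 and 3339 intensity units in CBZ mice 1, 2 and 3, against 4527, 6004 and 1465 in DMSO mice 1, 2 and 3. All CBZ mice therefore lay between DMSO mouse 3 and the other DMSO mice. The highest scaled level was 1.10 times the lowest in CBZ livers and 4.07 times the lowest in DMSO livers. The SD of the log2 level was 0.072 in CBZ livers, at the 11.8th percentile of all genes tested, and 1.06 in DMSO livers, at the 99.8th percentile. The log2 fold change was -0.22 ± 0.43 (SE, n = 3 mice per group, limma's adjusted p = 0.964), with a 95% interval of -1.21 to 0.77.

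A second Dbp probe, at chr7:52965322-52965381, gave the same order of mice within the DMSO group, with a less narrow CBZ group. Its highest scaled level was 1.21 times the lowest in CBZ livers (SD of the log2 level 0.14, 39.5th percentile) and 3.77 times in DMSO livers (SD at the 99.8th percentile). It read 2153, 2085 and 2699.8 intensity units in CBZ livers and 3435, 4456 and 1175 in DMSO livers, with a log2 fold change of -0.20 ± 0.42 (limma's adjusted p = 0.965). Single DMSO mice moved the value for Dbp. Without DMSO replicate 3 the log2 fold change was -0.82 ± 0.17 (limma's unadjusted p = 0.00181, adjusted p = 0.224), and without DMSO replicate 2 it was 0.20 ± 0.38 (limma's adjusted p = 1.0). The remaining 4 fits that leave out 1 mouse gave -0.25 to -0.032.

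Tef, the PAR bZIP paralogue with the E-box in both promoter windows shown above, read 12966, 13076 and 13693 intensity units in CBZ mice and 17648, 18286 and 12156 in DMSO mice (probe at chr15:81657221-81657280, mm9, plus strand). DMSO mouse 3 was again the lowest of its group, and its scaled level of 6.14 on the log2 scale lay beside 6.14, 6.37 and 6.16 in the CBZ mice. The groups overlapped only through that mouse. The log2 fold change was -0.27 ± 0.18 (limma's adjusted p = 0.782), and -0.44 ± 0.14 without DMSO replicate 3 (unadjusted p = 0.0143, limma's adjusted p = 0.298). Without DMSO replicate 2 it was -0.15 ± 0.20 (limma's adjusted p = 1.0).

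Hlf, the third of the PAR bZIP genes, read 1269.7, 1399.9 and 1439.8 intensity units in CBZ mice and 1371, 1224 and 1270.5 in DMSO mice (chr11:90200696-90200755, mm9, minus strand). The groups overlapped, and DMSO mouse 3 stood among the others. The log2 fold change was 0.074 ± 0.14 (95% interval -0.24 to 0.39, limma's adjusted p = 0.962). It was -0.026 under array median scaling, where the median of all genes was -0.10, and -0.087 within slide row 1, so the direction of Hlf was not settled.

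Nfil3, the repressor at the D-box, read 2524, 1544 and 2064 intensity units in CBZ mice and 2366, 2513 and 2421 in DMSO mice (chr13:53062578-53062637, mm9, minus strand). CBZ mice 2 and 3 were below every DMSO mouse, and CBZ mouse 1 was level with them. The log2 fold change was -0.29 ± 0.15 (limma's adjusted p = 0.648). Without CBZ replicate 2 it was -0.19 ± 0.15. CBZ mouse 1 shared slide row 1 with the 3 DMSO arrays, while CBZ mice 2 and 3 lay in row 2, and within row 1 the value for Nfil3 was -0.0145. The part of the row in this value was not tested further.

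Transcripts of an activator and a repressor that bind the D-box, Dbp and Nfil3, were compared within each array. Protein was not measured, and Tef and Hlf were left out. The difference of the log2 signals of Dbp and Nfil3 was used, which does not depend on array scaling. It compares change across mice, not the amounts of the 2 transcripts. The difference was 0.21, 0.79 and 0.69 in CBZ mice (mean 0.57 ± 0.31 SD, n = 3) and 0.94, 1.26 and -0.72 in DMSO mice (mean 0.49 ± 1.06 SD, n = 3). CBZ minus DMSO was 0.076 with p = 1.0 in a two-sided exact permutation test, where the smallest p this design allows is 0.1. Without DMSO replicate 3 it was -0.53, and without DMSO replicate 2 it was 0.46.

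Bhlhe40, the E-box repressor also known as Dec1, read 1794, 1626 and 2382 intensity units in CBZ mice and 1539.95, 1306 and 1539 in DMSO mice (chr6:108616309-108616368, mm9, plus strand). Every CBZ mouse was above every DMSO mouse, as for 6.26% of all genes. The mean was 1.30-fold higher in CBZ livers, a log2 fold change of 0.38 ± 0.15 (95% interval 0.043 to 0.71, unadjusted p = 0.031, limma's adjusted p = 0.463). Within slide row 1 it was 0.23, a value that rests on CBZ mouse 1 alone.

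Usp2, the deubiquitinating protease, read 2539.6, 2757 and 1798 intensity units in CBZ mice and 3449.7, 3559 and 3040.4 in DMSO mice (chr9:43903649-43903708, mm9, plus strand). Every CBZ mouse was below every DMSO mouse, as for 6.65% of all genes, but after scaling the nearest mice of the groups were at 4.12 and 4.14 on the log2 scale. The mean was 1.45-fold lower in CBZ livers, a log2 fold change of -0.54 ± 0.22 (95% interval -1.03 to -0.046, unadjusted p = 0.0354, limma's adjusted p = 0.477). CBZ mouse 3 was the lowest, and without it the log2 fold change was -0.30 ± 0.17 (unadjusted p = 0.116, limma's adjusted p = 0.907). Within slide row 1 it was -0.46.

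Wee1, the kinase that restrains Cdk1, read 224, 182 and 250.2 intensity units in CBZ mice and 253, 267 and 176 in DMSO mice (chr7:117286573-117286632, mm9, plus strand). DMSO mouse 3 was below all other mice after scaling, and DMSO mice 1 and 2 were above them. The log2 fold change was -0.089 ± 0.17 (limma's adjusted p = 0.963), and it turned to 0.031 without DMSO replicate 2. The plot with each mouse left out sets these values side by side.

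**Figure D2:**
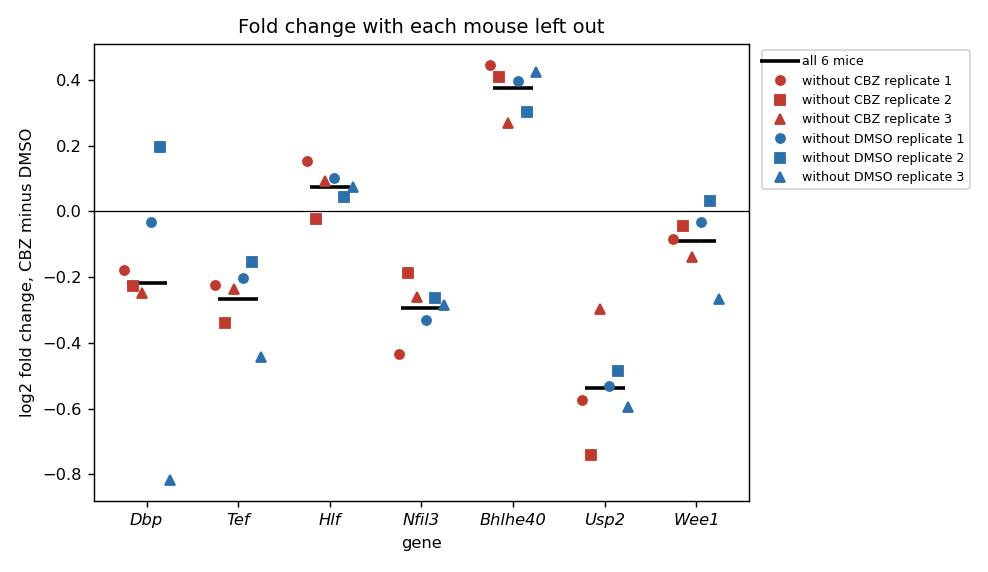
Log2 fold change (CBZ minus DMSO, vertical axis) of each measured member with all 6 mice (black bar) and with each mouse left out (red symbols for CBZ mice, blue symbols for DMSO mice). Dbp runs from -0.82 without DMSO replicate 3 to 0.20 without DMSO replicate 2, while Bhlhe40 stays above 0 and Usp2, Tef and Nfil3 stay below 0 in these 6 fits.

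Dbp, Tef, Wee1 and Usp2 had the same order of DMSO mice, with mouse 2 highest and mouse 3 lowest, but the drop in mouse 3 differed in size. The log2 level of DMSO mouse 3 minus the mean of DMSO mice 1 and 2 was -1.80 for Dbp and -0.53 for both Tef and Wee1. These lay at the 0.0645th, 4.31st and 4.25th percentiles of the same difference over all 17047 genes. For Hlf, Nfil3, Bhlhe40 and Usp2 it was 0.0045, 0.023, 0.15 and -0.17, between the 30.8th and 70.2nd percentiles. Among clock genes, Nr1d2, which encodes the repressor REV-ERB beta, was at -0.77 (1.12th percentile), Nr1d1, which encodes REV-ERB alpha, at -0.54, and Per2, a repressor of the loop, at -0.47. Arntl, an activator of the loop, was at 0.52 (92.5th percentile). Clock (0.14), Per1 (-0.11) and Per3 (-0.086) were mid-range, between the 39.9th and 68.8th percentiles. Of the output list, Elovl3, a fatty acid elongase with a strong liver rhythm, was at 1.00 (99.4th percentile). Nampt, an enzyme of NAD synthesis, and Cyp2a4, a cytochrome P450, were both at -0.69. These 2 genes were chosen after their values were seen, and mouse 3 was singled out after its Dbp level was seen. The rest of the output list was not compared this way, though other genes of it, described below, also varied among the DMSO mice. Scaled log2 levels in DMSO mice 1, 2 and 3 were 2.73, 1.12 and 3.30 for Rgs16. They were 5.52, 4.82 and 6.41 for Cyp4a14, and 3.92, 4.43 and 3.44 for the brighter Noct probe. In each of these genes mice 2 and 3 were at opposite ends of the group, and for Rgs16 mouse 2 stood farthest apart.

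**Figure D3:**
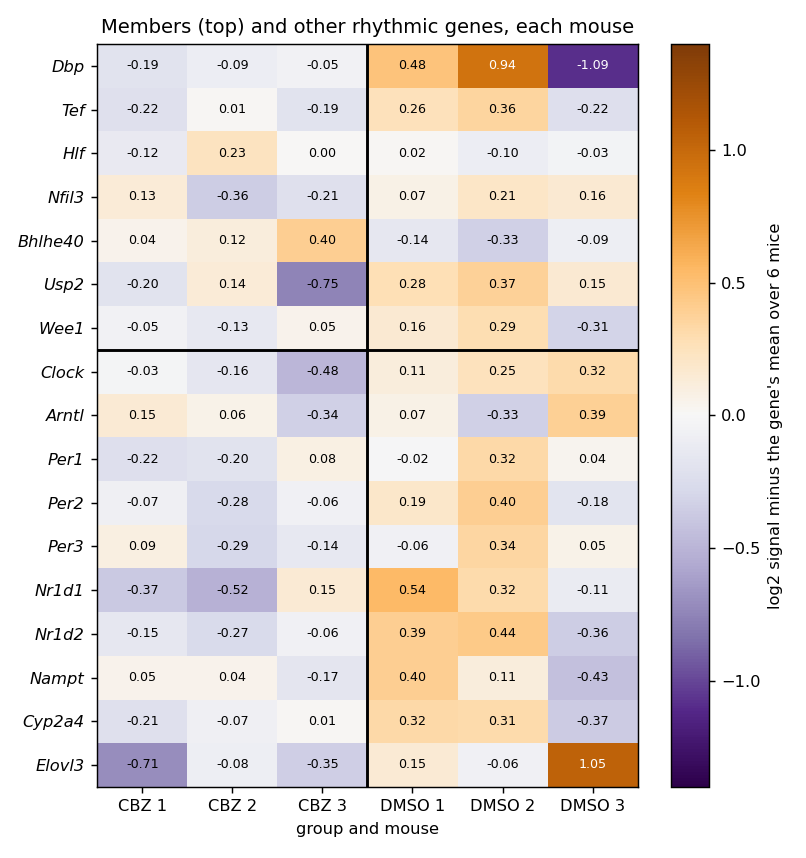
Log2 signal of each gene minus its mean over 6 mice (colour and printed number), with the members above the line and other rhythmic genes below it, and the CBZ mice left of the DMSO mice. Dbp stands at 0.48, 0.94 and -1.09 in DMSO mice 1, 2 and 3 and between -0.19 and -0.05 in CBZ mice, and Elovl3 is at 1.05 in DMSO mouse 3.

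Markers of other cells also differed between the DMSO mice, and mouse 3 stood apart in those of neutrophils. S100a9, a neutrophil marker, had a scaled log2 level of 0.73, 0.92 and 0.88 in CBZ mice and 1.12, 1.65 and -1.72 in DMSO mice. The summed level of the 2 neutrophil markers, S100a8 and S100a9, was 2.04 to 2.23 in CBZ livers and 0.444 to 3.80 in DMSO livers. DMSO mouse 3 had the lowest sum. Both markers were well above background in at least 1 whole group. S100a8 was so on 5 arrays and read 24.4 intensity units in DMSO mouse 3. The 5 Kupffer cell and macrophage markers, all measured, summed to 138 to 169 in CBZ livers and 106 to 245 in DMSO livers, highest in DMSO mouse 1. The 2 erythroid markers summed to 223 to 348 in CBZ livers and 240 to 434 in DMSO livers, highest in DMSO mouse 2. The part of these markers in the values of Dbp, Tef and Wee1 was not tested.

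Across all 6 mice, 21 pairs of members were compared, and these correlations mix group and mouse. Dbp and Wee1 had Pearson's r of 0.96 (exact permutation p = 0.00417) and Spearman's rho of 0.94 (p = 0.0167), and r was 0.83 without the 2 mice farthest from the median of Dbp. Dbp and Tef had r of 0.85 (exact permutation p = 0.00694) and rho of 0.94 (p = 0.0167), and r was 0.90 without those mice. The mice left out were DMSO mice 2 and 3, so these values rest on the CBZ mice and DMSO mouse 1. Within the CBZ mice r was 0.40 for Dbp with Wee1, 0.29 for Dbp with Tef and -0.76 for Tef with Wee1. Within the DMSO mice r was 1.0 for Dbp with Wee1 and 0.999 for each of the other pairs of these genes. In the DMSO mice Dbp, Tef and Wee1 had the same order, while in the CBZ mice Dbp and Wee1 were highest in mouse 3 and Tef in mouse 2. Bhlhe40 and Usp2 ran opposite ways, with r of -0.90 (exact permutation p = 0.00972) and rho of -0.94 (p = 0.0167), and r of -0.53 without the 2 mice farthest from the median of Bhlhe40. After Benjamini-Hochberg adjustment over the 21 pairs, the Pearson values over 6 mice for Dbp with Wee1, Dbp with Tef and Bhlhe40 with Usp2 each had permutation p = 0.0681. Each rho had p = 0.117, so none passed. The next was Hlf with Nfil3, with r of -0.85 (exact permutation p = 0.0236, adjusted p = 0.124) and rho of -0.77 (p = 0.103).

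The genes whose profiles over the 6 arrays were nearest to Dbp, by root mean square distance of centred log2 levels among 10793 genes, were Vax2 (0.18), Kit (0.26) and Mmd2 (0.26). All 3 were lowest in DMSO mouse 3 and highest in DMSO mouse 2, as was Dbp. Nearest to Usp2 were Zrsr1 (0.054), Med26 (0.067) and Gcm1 (0.10), each lowest in CBZ mouse 3, as was Usp2. Such shared extremes follow from choosing genes by nearness and are no separate result.

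Of the 18 genes of the core clock list, 14 were measured, and none passed the test. Of these 14 genes, 3 had a higher mean in CBZ livers and 11 a lower one, and the median log2 fold change was -0.19, against -0.0043 over all genes. Clock, whose product pairs with Arntl, read 299, 235 and 227 intensity units in CBZ mice and 323, 342 and 357 in DMSO mice. Its groups did not overlap, and its log2 fold change was -0.45 ± 0.15 (unadjusted p = 0.0169, limma's adjusted p = 0.386). Csnk1e, a kinase that phosphorylates Per proteins, was the other gene with an unadjusted p under 0.05, at 0.37 ± 0.14 (limma's adjusted p = 0.451), with higher values in all CBZ mice. Nr1d1 was at -0.50 ± 0.22 (limma's adjusted p = 0.541), and its groups overlapped. Other loop genes, with their log2 fold changes, were Nr1d2 (-0.32), Per2 (-0.27), Per3 (-0.22), Per1 (-0.22), Cry2 (-0.15) and Arntl (-0.088), whose adjusted p in limma was 0.754 or above. A dimmer probe named Nr1d2, which the array design places on chr19 and not on chr14, was at 0.077 ± 0.23. Cry1, a repressor of the loop, and Ciart, a repressor of Clock and Arntl activity, were dim in both groups, as were Npas2 and Fbxl21.

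**Figure D4:**
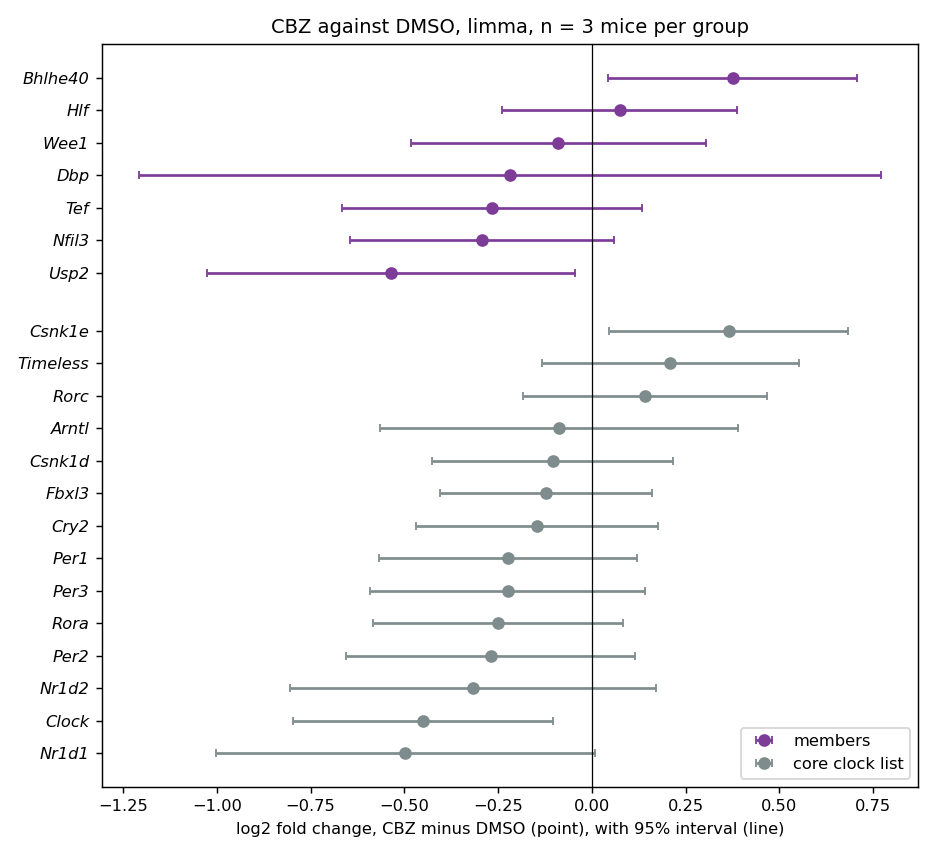
Log2 fold change (CBZ minus DMSO, horizontal axis) of the 7 measured members (purple, above) and the 14 measured core clock genes (grey, below), with the point at limma's estimate and the line its 95% interval, unadjusted, for 3 mice per group. The intervals of Bhlhe40, Usp2, Csnk1e and Clock leave out 0, and that of Dbp is the widest of those drawn.

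Of the list of 18 D-box and clock output genes, 17 had a probe and 16 were measured, with 9 higher and 7 lower in CBZ by their means and a median log2 fold change of 0.31. None passed by its brightest probe, and 5 higher and 2 lower genes had an unadjusted p under 0.05, which 8.96% of all genes met. The median was 0.14 within slide row 1, 0.21 without CBZ replicate 2 and 0.20 without DMSO replicate 2, and the count was 12 higher and 4 lower without CBZ replicate 3. Alas1, the rate-limiting enzyme of heme synthesis and a known PAR bZIP target, read 88009, 84915 and 91999.8 intensity units in CBZ mice and 57841, 46848 and 30996 in DMSO mice. Its groups did not overlap, and the log2 fold change was 1.00 ± 0.21 (limma's adjusted p = 0.173). A dimmer Alas1 probe rose by 2.02 ± 0.17 (limma's adjusted p = 0.00817), so the probes differ in size and in call. Por, which passes electrons to cytochromes P450, was at -0.021 ± 0.15, and Nr1i3, the receptor CAR, was at 0.29 ± 0.15 with every CBZ mouse higher (limma's adjusted p = 0.642).

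The largest log2 fold change in the list was that of Cyp2b10, a cytochrome P450 induced through CAR, at 2.89 ± 0.44 (limma's adjusted p = 0.0657), with 93772, 76945 and 38122 intensity units in CBZ mice and 14608, 4953 and 8987 in DMSO mice. Rgs16, a regulator of G protein signalling, was at 1.50 ± 0.49 and Cyp4a14, a fatty acid hydroxylase, at 1.05 ± 0.35. Cyp7a1, the rate-limiting enzyme of bile acid synthesis, was at 0.78 ± 0.29. Ppara, the receptor that drives fatty acid oxidation genes, was at -0.49 ± 0.15, and Elovl3 at -0.76 ± 0.29. After scaling, by the brightest probes, the groups overlapped for Cyp4a14 and not for Rgs16, Cyp7a1, Ppara or Elovl3. By these probes limma's adjusted p was 0.33 or above for these 5 genes. Dimmer Ppara probes gave -0.34 ± 0.15 with overlapping groups and -0.38 ± 0.14 without overlap. Noct, which encodes nocturnin, a protein with a strong daily rhythm in liver, was at 0.50 ± 0.25 by its brighter probe and -0.24 ± 0.15 by the other, so its direction depends on the probe. Fgf21 was dim in both groups, and Cyp2a5 is only named here.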

How the data were processed

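Total RNA of 6 mouse livers was isolated and labelled with Cy3 (100 ng per sample), per the labels' protocols. Scans were read by the authors with Agilent Feature Extraction (10.7.3.1), per the file headers. The deposited scanner files hold a linear intensity per spot, background-subtracted per the file headers. The authors' deposited table holds a ratio of that intensity to the array's median, with a linear scale and centring on the median, since dividing the scanner values by the median returned the table.

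Control spots and the 114 to 126 outlier spots per array were left out, and the log2 intensity was scaled to each array's 75th percentile over 59305 spots. Repeat spots were averaged per probe. Probes had to be well above background throughout 1 group or the other, that is on its 3 arrays. A gene is represented by its brightest kept probe. Other kept probes are given beside it for the members and for some, not all, of the list genes. CBZ was compared with DMSO in limma 3.58.1 (R 4.3.3), two-sided, without covariates, with Benjamini-Hochberg adjustment over 22352 probes. Groups and replicate numbers come from the labels. On simulated data for this comparison, with 200 of 22352 probes changed, the share called was 2.8% at a 1.41-fold change, 54.8% at 2-fold and 93% at 4-fold.

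Probe positions follow the array design (mm9). Names came from the files and, where they matched, a RefSeq table (27428 probes by accession, 3483 by symbol, 507 by synonym, 24263 by the file's name). All arrays shared 1 slide and 1 scan batch. Members, lists and the rule for named genes were chosen with earlier results of these data known. The rule took every member, the loop genes and main output genes, those with an unadjusted p under 0.05 (at most 4 of the other bZIP list), and the 3 nearest profiles to Dbp and Usp2. Cell type markers were 6 of hepatocytes, 5 of Kupffer cells and macrophages, 5 of endothelial cells, 5 of stellate cells and fibroblasts, 4 of cholangiocytes, 4 of lymphocytes, 2 of neutrophils and 2 of erythroid cells. Alternatives covered scaling, background correction, the filter, variance moderation, the slide row, the values of the authors' table, a replicate block and each mouse left out.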

Additional observations from a re-analysis of the deposited data

How the results depend on the processing

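No member was called under the settings run, with limma's adjusted p of 0.224 or above throughout, and at an unadjusted p under 0.05 they left 0 to 3 members. The 9 genes called over the whole array became 3 when scaled over spots detected on all arrays, 4 under quantile normalization, 4 with the slide row as a covariate, 0 without the filter on dim probes (1600 at an unadjusted p under 0.05 in limma), 30 (23 higher, 7 lower) with a filter on all 6 arrays, 102 (58 higher, 44 lower) under normexp with an offset of 50, and 134 (63 higher, 71 lower) with an intensity trend and robust moderation. Array median scaling and the authors' table each gave 89 (44 higher, 45 lower), with a variance common to all probes, so that their p-values do not measure the spread of single genes. Leaving out each mouse gave 0 to 21, with 0 without CBZ replicate 2 (1613 at an unadjusted p under 0.05) and without DMSO replicate 3 (2037). The cause of these changes was not tested. The core clock median log2 fold change was -0.28 under array median scaling and the authors' table, where all genes moved to -0.10, and it was -0.097 with the slide row and -0.25 to -0.12 with a mouse left out. Hlf turned to -0.026 under array median scaling and the authors' table and -0.087 with the slide row, and ran from -0.024 to 0.15 with a mouse left out. With a mouse left out, Dbp ran from -0.82 to 0.20, its second probe from -0.77 to 0.19, Wee1 from -0.27 to 0.031, and Dbp over Nfil3 from -0.53 to 0.46. Bhlhe40, Usp2, Tef and Nfil3 kept their direction in all 16 alternatives, but not all of these could change a fold change. The replicate block, the moderation and the changed filters returned the main value. The authors' table gave the same value as array median scaling.

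Whether the replicate numbers pair the mice was not settled. Same-numbered deviations from the group means correlated at -0.238, 0.0165 and 0.18, and differently numbered ones at -0.354 to 0.38. With 3 mice per group the deviations of a group depend on each other, so these values cannot exclude a pairing. A fit with the replicate block called 7 genes and no member. The planned ratio of Bhlhe40 over Bhlhe41 and its alternatives were not run, since Bhlhe41 was not above background. Signal over background limits dim probes, since an array's 75th percentile was 9.89 to 12.3 times its local background.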

Other observations

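Of 12 other liver bZIP genes, relatives of the PAR bZIP family, 11 were measured, with 6 higher and 5 lower in CBZ by their means, a median log2 fold change of 0.012 and none past the threshold. In limma's test 4 of them had an unadjusted p under 0.05, against 8.96% of all genes. Cebpb, a C/EBP factor of the acute phase and of liver regeneration, read 10819, 12142 and 14007 intensity units in CBZ mice and 8815, 8673 and 8344 in DMSO mice, with a log2 fold change of 0.50 ± 0.14 (limma's adjusted p = 0.304). Atf4, the factor of the integrated stress response, read 14321, 13129 and 16008 in CBZ mice and 19070.0, 22476 and 17886 in DMSO mice, at -0.46 ± 0.14 (limma's adjusted p = 0.317), and a dimmer probe gave -0.48 ± 0.21. By the brighter probe the groups of both genes did not overlap, and by the dimmer Atf4 probe they did. Ddit3, which encodes CHOP, was at -0.53 ± 0.20 without overlap. Crem, a cAMP-responsive factor, was at -0.38 ± 0.16 with overlapping groups, and a dimmer probe gave -0.14 ± 0.18.

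None of the marker genes passed limma's test. Those with an unadjusted p under 0.05 were Alas2, given below, and Krt7, a cholangiocyte marker that was well above background on only 3 arrays and so entered the test through a single group. The 5 endothelial markers, all measured, summed to 24.5 to 32.8 times the array's 75th percentile in CBZ livers and 22.9 to 32.0 times in DMSO livers. Of the 5 stellate cell and fibroblast markers Des did not pass the filter, and the other 4 summed to 8.84 to 16.6 in CBZ livers and 9.10 to 9.67 in DMSO livers. The 4 lymphocyte markers summed to 5.90 to 6.30 in CBZ livers and 5.85 to 6.03 in DMSO livers. For Cd79a this sum used the brighter probe, which the array design places on chr12, at a log2 fold change of 0.21 ± 0.19. A dimmer Cd79a probe, placed on chr7, was at 0.53 ± 0.28. Of the 4 cholangiocyte markers Epcam and Sox9 did not pass the filter, and the other 2 summed to 0.979 to 1.32 in CBZ livers and 0.754 to 1.30 in DMSO livers. Alas2, an erythroid marker, had lower values in all CBZ mice (limma's unadjusted p = 0.0263, adjusted p = 0.436).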
